A study of Mus musculus with 12 samples.

Results

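Mesoderm cells that were labelled as fated to different organs were compared in mouse embryos at stage E7.25: YFP-negative cardiac mesoderm, which the labels call non-ventricular, and hematopoietic mesoderm, labelled KDR+. The comparison used 6 of the 12 RNA-seq libraries of the study, 3 of each type, chosen by sample title. Every library, including those not compared, came from the Foxa2Cre:Rosa26-YFP line, in which Cre made under Foxa2 control switches on a yellow fluorescent protein (YFP) permanently, so that YFP marks cells with a history of Foxa2 expression. The YFP-negative cardiac cells lacked that mark, the labels give no YFP state for the hematopoietic cells, and no other allele, agent or treatment is named for either type. The other 6 libraries were 3 of YFP+ cardiac mesoderm, which the labels call ventricular, and 3 of EPCAM+ endoderm. The number of embryos pooled per library is not given, so p-values measure the spread between these libraries, which may be technical in part.

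Mesoderm leaves the primitive streak during gastrulation and takes different routes. Cells that move to the yolk sac form blood and the first endothelium under transcription factors of the Gata, Tal1, Runx1, ETS and SoxF groups, and they depend on the VEGF receptor KDR. Cells that move to the anterior side of the embryo pass through expression of Mesp1, a basic helix-loop-helix factor of the earliest cardiac progenitors, and later build the heart. Both kinds of mesoderm express Kdr at this stage.

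Gene counts totalled 5756722 to 7111602 per YFP-negative cardiac library and 4472800 to 5857568 per hematopoietic library, so that the floor of 3 counts used below stood for 0.420 to 0.723 CPM, that is counts scaled to a common library size after TMM scaling. Levels are given as such CPM, which are not corrected for gene length and are therefore compared between libraries and not between genes. The hematopoietic libraries varied more among themselves: the biological coefficient of variation was 1.16 in hematopoietic and 0.749 in YFP-negative cardiac mesoderm. Across genes, the Pearson correlation of log2 levels between 2 libraries was 0.855 to 0.863 within the cardiac type and 0.745 to 0.811 within the hematopoietic type, against 0.760 to 0.814 between the types. Hematopoietic replicate 3 stood apart. Of 27 blood and endothelial transcription factors above the floor in any hematopoietic library, 19 were lowest in it, and Fendrr, a long noncoding RNA of lateral mesoderm, was at 63.8 CPM there against 1.20 and 0.346 CPM in replicates 1 and 2. List medians and calls that moved without it, or without another hematopoietic library, are given beside the result, over the members tested in each fit. Leaving out the library whose level in a gene is nearest to the other type favours a smaller p-value for that gene. Such calls show dependence on that library and are no support for a difference. Across genes, hematopoietic replicate 2 correlated most with the cardiac libraries, at 0.803 to 0.814. The range was 0.760 to 0.774 for replicate 1 and 0.761 to 0.767 for replicate 3. Fendrr itself was not called with all libraries (edgeR adjusted p = 0.579) and was called without replicate 3 (0.0231). In bulk RNA, fewer cells of a kind and less RNA per cell cannot be told apart.

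Transcripts that separated the 2 types were few at the adjusted threshold and large in size. Of 14170 genes tested with edgeR's quasi-likelihood test over all 12 libraries, 84 had a Benjamini-Hochberg adjusted p under 0.05 (0.593%), with 57 higher (0.402%) and 27 lower (0.191%) in YFP-negative cardiac mesoderm, and 2472 genes had an unadjusted p under 0.05. The genes higher in hematopoietic mesoderm included Sox7, Cdh5, Runx1 and Myb, and those higher in cardiac mesoderm included Mesp1, Foxf1, Otx2, Lefty2, Dll1 and Pcdh19. In all 84 genes the libraries of the 2 types did not overlap, which was also true of 11.8% of all tested genes in the cardiac-higher direction and 6.87% in the hematopoietic-higher direction. The absolute log2 fold change was over 5 for 41 of the 57 cardiac-higher genes and for 7 of the 27 hematopoietic-higher genes, and the median log2 fold change of all tested genes was 0.02.

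The number of calls depended on which libraries estimated the spread. A fit of the 6 compared libraries alone called 10 of 11440 genes (0.0874%). These were Sox7, Runx1, Mast4 and Myo10, higher in hematopoietic mesoderm, and Pcdh19, Lefty2, Dll1, Dact1, Otx2 and Robo1, higher in cardiac mesoderm. In a single simulated draw each type kept the spread estimated from its 3 libraries. There the 12-library fit called more unchanged genes than its threshold allows and the 6-library fit did not. The share of true changes that each fit found is not given here, so the draw does not rank the genes. The 10 genes are marked below. The deposited file names give same-numbered libraries a shared date with no stated meaning, and with the replicate number as a block 31 of the 84 genes were called (22 higher and 9 lower). DESeq2 called 684 genes higher (4.83%) and 363 lower (2.56%), including 83 of the 84, and limma voom with quality weights called 19 higher and 76 lower, and shared 31 genes with the 84. A fit of the 9 mesoderm libraries, without endoderm, called 13 of 12436 genes, 11 higher and 2 lower. It called no member of the blood factor, endothelial surface, cardiac factor or streak lists described below. Without cardiac replicates 1, 2 and 3 in turn, 28, 16 and 18 genes were called, and without hematopoietic replicates 1, 2 and 3, 71, 247 and 218. Those without hematopoietic replicate 1 were 58 higher and 13 lower. The 13 genes called in all 6 fits that left out 1 library were Myo10, Tjp1, Robo1, Eml1, Otx2, Dact1, Lefty2, Pcdh19, Slco5a1, Dll1, Mfap3l, Meis1 and 1700006J14Rik.

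**Figure D1:**
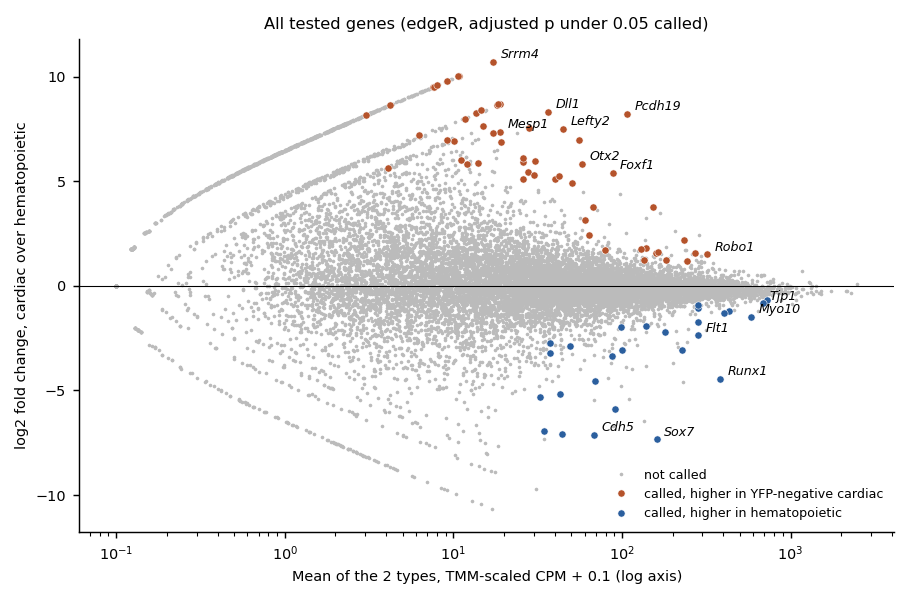
Each point is 1 of the 14170 tested genes: the x axis is the mean TMM-scaled CPM of the 2 types plus 0.1 on a log axis, and the y axis is the log2 fold change of YFP-negative cardiac over hematopoietic mesoderm. Coloured points are the 57 genes called higher and the 27 called lower in cardiac mesoderm by edgeR; the called cardiac-higher genes reach larger fold changes at lower mean levels than the called hematopoietic-higher genes.

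**Figure D2:**
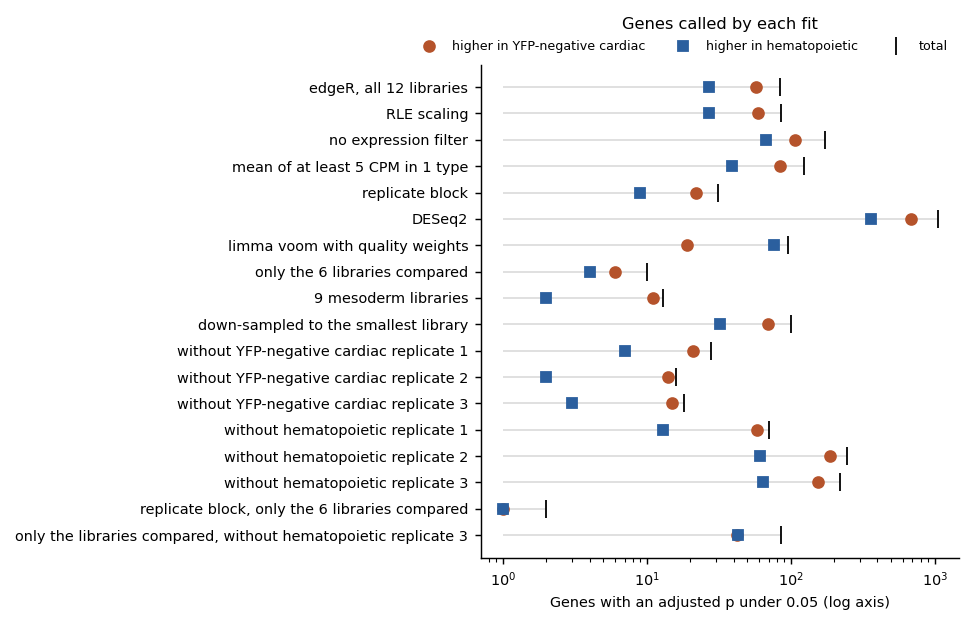
Number of genes with an adjusted p under 0.05 (log axis) in each fit, with circles for genes higher in YFP-negative cardiac mesoderm, squares for genes higher in hematopoietic mesoderm and a bar for the total. Totals run from 2 with the replicate block in the 6 compared libraries to 1047 with DESeq2.

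The labels were first checked against the genes that the sorts refer to. Where cells were sorted on the product of any of these genes, its difference cannot be told apart from the sort. Kdr, the VEGF receptor named in the hematopoietic label, was at 488, 540 and 444 CPM in YFP-negative cardiac libraries and 665, 700 and 965 CPM in hematopoietic libraries. The receptor was thus abundant in both types, and its log2 fold change of -0.66 ± 0.30 (SE) did not pass the test (edgeR adjusted p = 0.279). Foxa2, the endoderm and node factor whose history the reporter records, had 0 counts in each YFP-negative cardiac library and 1 count in each hematopoietic library, all at or under the floor, and 52.3 to 62.3 CPM in endoderm. Epcam, an epithelial adhesion gene used to sort the endoderm, was at 36.0, 25.8 and 43.0 CPM in cardiac and 21.4, 1.04 and 68.9 CPM in hematopoietic libraries, against 204 to 240 CPM in endoderm. Pdgfra, a receptor of paraxial and cardiac mesoderm, was at 204, 330 and 387 CPM in cardiac and 1.93, 31.5 and 48.3 CPM in hematopoietic libraries. The types did not overlap in Pdgfra, and the log2 fold change of 3.49 ± 0.72 fell just outside the threshold (edgeR adjusted p = 0.0514; 0.00606 and 0.0215 without hematopoietic replicates 1 and 3).

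Blood and endothelial transcription factors lay on the hematopoietic side. Of 28 listed genes, 24 passed the expression filter, 3 were lower in YFP-negative cardiac mesoderm (Sox7, Runx1 and Myb) and none was higher; by unadjusted p 16 were lower and none higher, and DESeq2 called 12 lower and none higher. The median log2 fold change of the 24 was -2.99 and 23 lay below 0. In 15 of the 24 every hematopoietic library was above every cardiac library, against 6.87% of all tested genes. The numbers called lower without hematopoietic replicates 1, 2 and 3 were 2, 3 and 6, at medians of -3.01, -2.78 and -3.32. With the replicate block none was called, at a median of -2.99. Of all tested genes, DESeq2 called 2.56% lower and 4.83% higher. An unadjusted p under 0.05 (edgeR) was found for 2472 of the 14170 tested genes, both directions together. The counts of the lists below stand against the same shares.

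Runx1 (chr16:92601466-92826149, minus strand, GRCm38), the factor required for definitive blood stem cells to form, is shown with the start-site windows of other genes because motifs of the ETS and GATA families that act in blood and endothelium were searched in them. Each window holds the 250 bases before a RefSeq transcript start (GRCm38.p6) on the strand of the gene. Some genes have several starts, and windows with a match were chosen for print where there was one. CAGGAAG, an ETS sequence, was in 1 of 2 windows of Runx1, 2 of 3 of Egfl7 and 1 of 4 of Otx2. The GATA sequence AGATAA was in 2 of the 4 windows of Otx2. Capitals mark the ETS sequence in the printed windows of Runx1 and Egfl7 and the GATA sequence in that of Otx2. Matches on the other strand appear as the reverse complement. The printed Runx1 window is chr16:92826075-92826324 (minus strand), that of Egfl7 chr2:26580833-26581082 (plus strand), that of Otx2 chr14:48662735-48662984 (minus strand) and the single window of Mesp1, which holds none of the motifs searched, chr7:79793591-79793840 (minus strand).
Runx1: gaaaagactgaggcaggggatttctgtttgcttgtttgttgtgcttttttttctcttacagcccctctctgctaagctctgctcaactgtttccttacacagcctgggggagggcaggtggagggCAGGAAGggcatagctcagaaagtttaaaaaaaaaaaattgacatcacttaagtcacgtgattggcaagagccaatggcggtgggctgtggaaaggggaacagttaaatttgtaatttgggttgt
Egfl7: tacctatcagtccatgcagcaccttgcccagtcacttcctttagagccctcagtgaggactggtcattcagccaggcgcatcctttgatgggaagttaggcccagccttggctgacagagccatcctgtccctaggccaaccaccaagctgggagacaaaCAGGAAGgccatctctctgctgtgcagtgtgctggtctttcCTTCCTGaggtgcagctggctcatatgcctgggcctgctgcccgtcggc
Otx2: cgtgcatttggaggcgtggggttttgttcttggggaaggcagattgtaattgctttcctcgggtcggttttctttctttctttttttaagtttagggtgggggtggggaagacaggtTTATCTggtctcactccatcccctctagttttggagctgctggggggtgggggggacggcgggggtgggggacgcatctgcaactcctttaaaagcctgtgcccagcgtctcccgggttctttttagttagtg
Mesp1: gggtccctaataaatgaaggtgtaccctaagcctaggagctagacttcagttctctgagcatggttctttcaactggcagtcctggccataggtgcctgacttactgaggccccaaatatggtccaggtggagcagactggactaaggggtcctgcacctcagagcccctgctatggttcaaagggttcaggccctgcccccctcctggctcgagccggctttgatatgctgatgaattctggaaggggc
The called genes were set beside all genes of the table. Promoter windows were matched for 44 of the 57 cardiac-higher and 20 of the 27 hematopoietic-higher genes, and a gene was counted if any of its windows held the letters on either strand. CAGGAAG was in 3 of the 20 hematopoietic-higher genes (Runx1, Egfl7 and Ripor1) and 4 of the 44 cardiac-higher genes, against 12.1% of 27025 genes. AGATAA was in 0 and 4, against 11.4% of all genes. The forkhead sequence TGTTTAC was in 0 and 1, against 3.54%, and the T-box sequence AGGTGTG was in 0 and 4, against 5.88%. A match is a description of the letters and not of a bound site.

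Runx1 was measured at 39.0, 39.5 and 21.4 CPM in YFP-negative cardiac libraries and at 739, 949 and 512 CPM in hematopoietic libraries. The lowest hematopoietic library was far above the highest cardiac one. The log2 fold change was -4.46 ± 0.79 (SE; edgeR adjusted p = 0.029), with an adjusted p of 0.00452 in the 6-library fit and 0.0508 with the replicate block. Without 1 cardiac library at a time its adjusted p was 0.0963 to 0.141, and without 1 hematopoietic library 0.0163 to 0.0491. Runx1 was at 4.79, 96.4 and 22.9 CPM in YFP+ cardiac mesoderm.

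Sox7 (chr14:63943673-63950732), a SoxF factor of the hemangioblast and early endothelium, was at 3.52, 0.841 and 1.59 CPM in cardiac and 226, 337 and 395 CPM in hematopoietic libraries. It had the largest change among the 27 genes called higher in hematopoietic mesoderm, at -7.33 ± 1.20 on the log2 scale (edgeR adjusted p = 0.0209). The adjusted p was 0.00452 in the 6-library fit, 0.0508 with the replicate block, and 0.0641 to 0.109 without 1 cardiac library at a time. The relatives of Sox7 in the list did not pass the test. Sox18, which acts with Sox7 in vessel formation, had 0 counts in every cardiac library and 10.4, 8.66 and 35.1 CPM in hematopoietic libraries (adjusted p = 0.0959). Sox17, which marks endoderm as well as endothelium, was at or below 0.335 CPM in each cardiac library and at 0, 32.0 and 21.0 CPM in hematopoietic libraries (adjusted p = 0.151).

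Myb (chr10:21124935-21160984), a factor of proliferating blood progenitors, was at 1.68, 1.12 and 1.88 CPM in cardiac and 102, 81.9 and 5.88 CPM in hematopoietic libraries. The low value came from hematopoietic replicate 3, and it still lay above every cardiac library. The log2 fold change was -5.32 ± 1.02 (edgeR adjusted p = 0.037). The adjusted p was 0.17 in the 6-library fit, 0.0908 with the block, 0.126 to 0.162 without 1 cardiac library at a time, 0.0816 without hematopoietic replicate 1 and 0.002 without hematopoietic replicate 3.

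The core factors of the hemangioblast had separate libraries but did not pass the test. Gata2, which maintains early blood progenitors, was at 79.6, 54.5 and 18.2 CPM in cardiac and 382, 389 and 375 CPM in hematopoietic libraries (log2 fold change -2.91 ± 0.82, adjusted p = 0.122). Tal1, the master factor of blood specification, was at 61.3, 85.8 and 19.1 against 471, 356 and 270 CPM (adjusted p = 0.154). Cardiac libraries thus held measurable amounts of both. Its partner Lmo2 was at 6.37, 27.5 and 31.9 against 199, 241 and 113 CPM (adjusted p = 0.165). The ETS factors Fli1, at 26.3, 19.1 and 10.1 against 334, 361 and 83.8 CPM (adjusted p = 0.0919), and Ets1, at 62.5, 126 and 81.5 against 342, 252 and 149 CPM (adjusted p = 0.167), were arranged alike. Ikzf1, a lymphoid and blood progenitor factor, was at 8.55, 0.280 and 0.290 against 411, 355 and 35.7 CPM (adjusted p = 0.0902). Its lowest hematopoietic library was again replicate 3, and without it Ikzf1 and Fli1 were called (adjusted p = 0.0455 for both).

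Etv2, the ETS factor that starts the blood and endothelial program, was the single tested member with a log2 fold change above 0. It was at 59.0, 34.2 and 55.2 CPM in cardiac and 32.5, 28.2 and 42.6 CPM in hematopoietic libraries, so that the ranges overlapped (log2 fold change 0.52 ± 0.79, adjusted p = 0.814). Gata1, the erythroid master factor, was at 0, 8.69 and 0.435 against 74.2, 46.6 and 0.210 CPM, and Erg, another ETS factor, at 0, 11.6 and 2.61 against 52.0, 97.5 and 0.840 CPM. In both genes hematopoietic replicate 3 lay within the cardiac range, and neither passed the test (adjusted p = 0.332 and 0.398, or 0.205 and 0.259 without replicate 3).

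**Figure D3:**
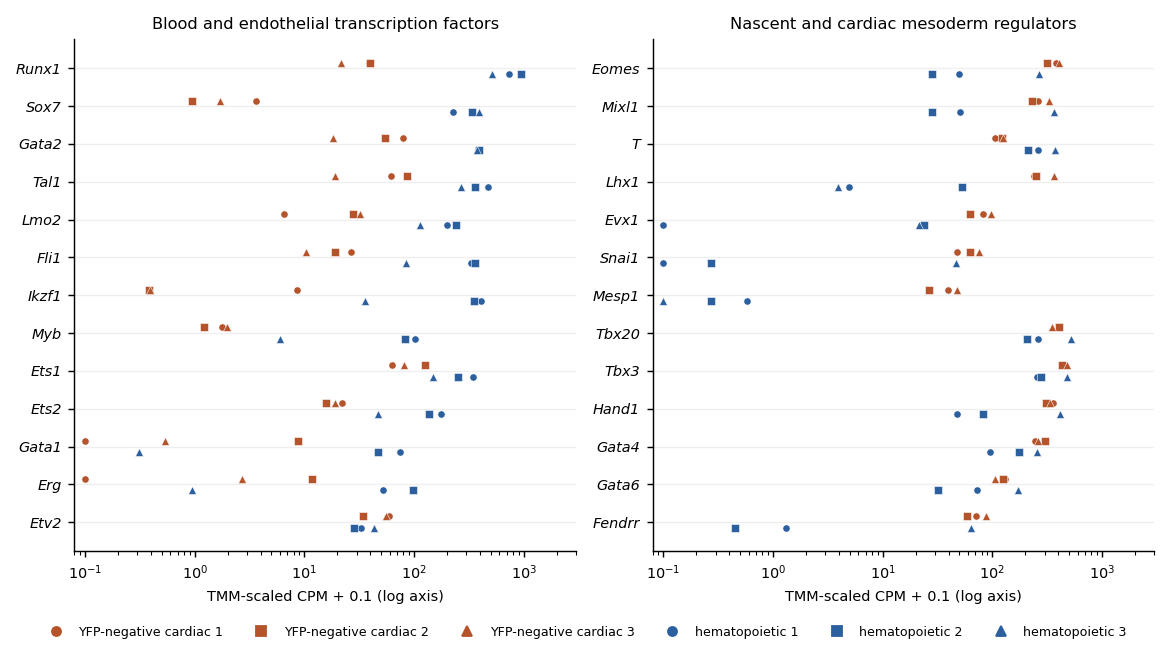
TMM-scaled CPM plus 0.1 (log axis) of 13 blood and endothelial factors (left) and 13 regulators of nascent and cardiac mesoderm (right) in each of the 3 YFP-negative cardiac and 3 hematopoietic libraries. On the left most hematopoietic points lie to the right of the cardiac points, except for Etv2, with hematopoietic replicate 3 (triangle) lowest for Myb, Gata1, Erg and Ikzf1; on the right replicate 3 is the hematopoietic point nearest to the cardiac points for Eomes, Mixl1, Snai1, Hand1 and Fendrr.

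Endothelial and hemangioblast surface genes lay mostly on the hematopoietic side. Of 31 listed genes 23 passed the filter, and 3 were called lower in cardiac mesoderm (Cdh5, Egfl7 and Flt1) and 1 higher (Cd93). The median log2 fold change of the 23 was -2.37, with 19 below 0. Without hematopoietic replicate 3, 5 were lower and 1 higher, at a median of -2.91, without hematopoietic replicate 1 only 1 was lower, and with the replicate block none was called. By unadjusted p 14 of the 23 were lower and 1 higher, and DESeq2 called 11 lower and 1 higher.

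Cdh5 (chr8:104101625-104144511), which encodes the endothelial junction protein VE-cadherin, was at 2.51, 0.140 and 0.290 CPM in cardiac and 101, 160 and 146 CPM in hematopoietic libraries. It was near the floor in 2 cardiac libraries and high in each hematopoietic library, and the log2 fold change was -7.11 ± 1.24 (edgeR adjusted p = 0.0283; 0.0898 in the 6-library fit, 0.0646 with the block). Leaving out cardiac replicate 2 or 3 gave an adjusted p of 0.105 and 0.116. Egfl7 (chr2:26580014-26593120), a secreted endothelial factor, was at 8.88, 5.18 and 3.04 against 251, 96.8 and 51.9 CPM. The log2 fold change was -4.54 ± 0.81 (adjusted p = 0.0301; 0.131 in the 6-library fit, 0.0572 with the block, 0.08 to 0.141 without 1 cardiac library and 0.0906 without hematopoietic replicate 1).

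Flt1 (chr5:147561604-147726011), the VEGF receptor that binds ligand without strong signalling, was at 118, 78.9 and 78.4 CPM in cardiac and 724, 510 and 189 CPM in hematopoietic libraries. It was therefore expressed in both types at unequal levels, and the log2 fold change was -2.37 ± 0.44 (edgeR adjusted p = 0.034; 0.159 in the 6-library fit, 0.0686 with the block). It was not called without any 1 cardiac library (0.0809 to 0.15) or without hematopoietic replicate 1 (0.0794). The third VEGF receptor, Flt4, was at 25.1, 6.59 and 59.7 against 238, 222 and 187 CPM (adjusted p = 0.181). Tek, the angiopoietin receptor, was at 13.9, 0.981 and 0.435 against 221, 302 and 122 CPM (adjusted p = 0.116).

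Cd93, a lectin-like receptor of endothelium, went the other way from its list. It was at 13.2, 47.6 and 3.33 CPM in cardiac libraries and had 0 counts in every hematopoietic library, and it was at 156, 78.0 and 29.1 CPM in YFP+ cardiac mesoderm. Against the floor of 3 counts per hematopoietic library it was at least 34.3-fold higher in YFP-negative cardiac mesoderm (edgeR adjusted p = 0.0301; 0.171 in the 6-library fit, 0.0648 with the block). The adjusted p was 0.0641 and 0.0844 without cardiac replicates 1 and 2 and 0.062 without hematopoietic replicate 1.

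The listed globins other than Hbb-bh1 had 0 counts in both types, while general genes of heme and iron supply were expressed in both. Among 21 primitive erythroid genes found, 9 passed the filter, none was called by edgeR or DESeq2 (1 was lower by unadjusted p), and 9 had 0 counts in all 6 libraries, among them the embryonic globins Hbb-y and Hba-x. Hbb-bh1, the early embryonic beta-type globin, was at 11.3, 7.27 and 0 CPM in hematopoietic libraries and had 0 counts in each cardiac library. The median log2 fold change of the 9 tested genes was -0.38, and it was -0.56, 0.24 and -0.81 without hematopoietic replicates 1, 2 and 3. Tfrc, the transferrin receptor, was at 305, 263 and 320 CPM in cardiac and 190, 312 and 313 CPM in hematopoietic libraries. Car2, a carbonic anhydrase, was at 90.8, 148 and 123 against 237, 201 and 139 CPM (adjusted p = 0.201). Of 10 macrophage and leukocyte markers 4 had 0 counts in all 6 libraries and none was called by edgeR (1 in each direction by unadjusted p, 1 higher by DESeq2), with summed levels of 8.83 to 42.2 CPM in cardiac and 34.5 to 46.1 CPM in hematopoietic libraries.

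Other genes higher in hematopoietic mesoderm came from no list. Ripor2, an inhibitor of the small GTPase RhoA, was at 1.17, 0.140 and 0.579 against 108, 39.5 and 114 CPM (log2 fold change -7.08 ± 1.09, edgeR adjusted p = 0.0174; 0.0469 with the block). Lcp1, the leukocyte actin-bundling protein L-plastin, was at 0.335, 0.140 and 1.16 against 130, 25.3 and 51.0 CPM (-6.92 ± 1.03, adjusted p = 0.015; 0.0228 with the block). Lcp1 was also at 61.9 to 108 CPM in endoderm. Neither Ripor2 nor Lcp1 was above 1.17 CPM in a YFP-negative cardiac library. Scube2, a secreted protein that aids Hedgehog release and VEGF receptor signalling, was at 8.38, 0.560 and 0.290 against 173, 230 and 136 CPM (-5.87 ± 1.14, adjusted p = 0.0382). Maf, a basic leucine zipper factor, was at 2.51, 2.52 and 1.74 against 123, 46.4 and 81.3 CPM (-5.20 ± 0.87, adjusted p = 0.0223). The ligand Reln, at 23.0, 44.6 and 77.8 against 409, 580 and 228 CPM (-3.06 ± 0.58, adjusted p = 0.0357), and Dab1, the adaptor of its receptors, at 15.1, 6.31 and 14.1 against 99.0, 94.9 and 65.1 CPM (-2.87 ± 0.57, adjusted p = 0.0416), were both higher in hematopoietic mesoderm. Each of these 6 genes missed the threshold in the 6-library fit (0.0765 to 0.17) and without cardiac replicate 2 (0.0801 to 0.162). With single libraries left out in turn, Ripor2 and Lcp1 were called 4 of 6 times, Scube2, Maf and Dab1 2 times and Reln 1 time.

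Several genes with a moderate fold change had a high level in both types. Myo10, the unconventional myosin of filopodia, was at 276, 348 and 303 CPM in cardiac and 887, 946 and 751 CPM in hematopoietic libraries. Its replicates were close within each type, and the log2 fold change of -1.48 ± 0.15 had an edgeR adjusted p of 0.000958, with 0.0258 in the 6-library fit and 0.00556 with the block. Tjp1, the tight-junction scaffold ZO-1, was at 489, 503 and 472 against 841, 921 and 868 CPM (-0.85 ± 0.11, adjusted p = 0.0051; 0.0765 in the 6-library fit, 0.0135 with the block). Mast4, a microtubule-associated kinase, was at 145, 136 and 114 against 472, 391 and 446 CPM (-1.73 ± 0.28, adjusted p = 0.0209; 0.0271 in the 6-library fit, 0.0469 with the block, 0.0756 to 0.11 without 1 cardiac library).

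**Figure D4:**
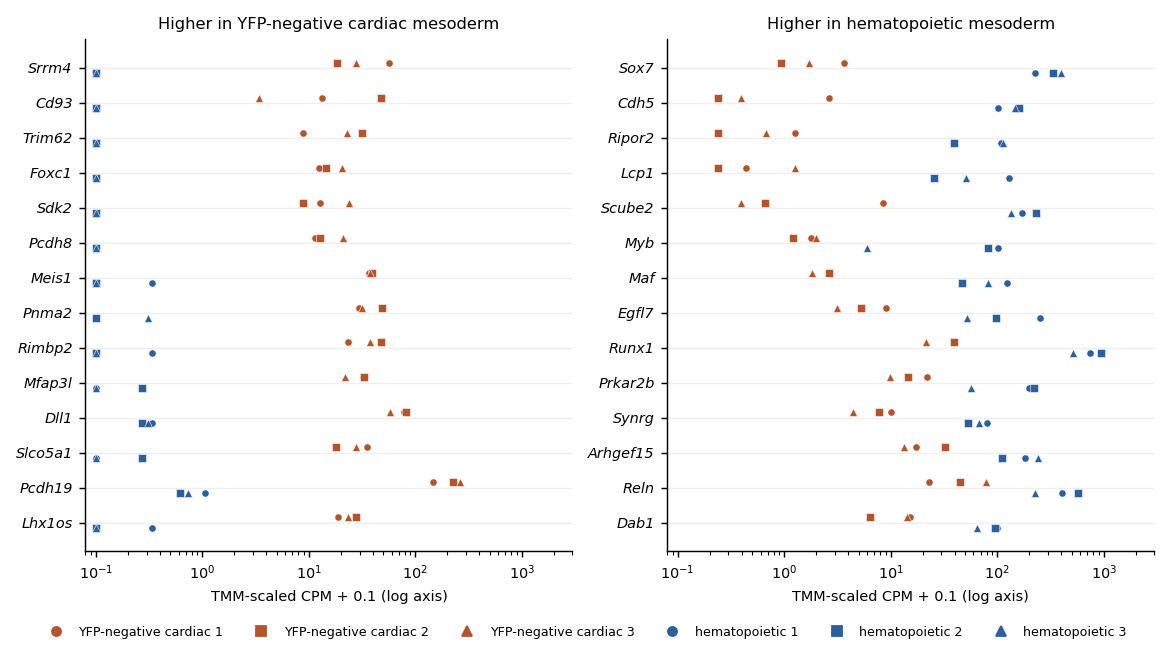
TMM-scaled CPM plus 0.1 (log axis) per library for the 14 genes with the largest called change in each direction that met a mean of 10 CPM and named gene models. The left panel shows genes higher in YFP-negative cardiac mesoderm, where the hematopoietic points sit at 0 or a few counts; the right panel shows genes higher in hematopoietic mesoderm, such as Sox7 and Runx1.

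On the cardiac side, the cardiac transcription factors as a list had a median log2 fold change of 2.22 over 18 tested genes of 22, with 17 above 0 and 1 called, Mesp1. By unadjusted p 8 of the 18 were higher and none lower, and DESeq2 called 6 higher and none lower. In 7 of the 18 every cardiac library was above every hematopoietic library, against 11.8% of all tested genes. With genes at 0 in 1 type set to their bound the median was 1.23. Without hematopoietic replicates 1, 2 and 3 it was 2.98, 1.39 and 3.41, with 0, 2 and 2 calls, and in the fits of 6 and 9 libraries 1.23 and 1.43. Mesp1 (chr7:79792241-79793788) was at 38.9, 26.5 and 47.7 CPM in YFP-negative cardiac libraries and at 0.482, 0.173 and 0 CPM in hematopoietic libraries, where 3 counts were found in all. It was 184-fold higher in the cardiac type by counts (95% exact counting interval 62.6 to 892; edgeR adjusted p = 0.0415). With single libraries left out, Mesp1 was called only without hematopoietic replicate 3 (adjusted p = 0.0491), and the other 5 fits gave 0.0597 to 0.141. The adjusted p was 0.159 in the 6-library fit and 0.0847 with the block. In YFP+ cardiac mesoderm Mesp1 was at 11.4, 19.9 and 54.0 CPM.

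The broadly expressed cardiac factors overlapped between the types. Tbx20, a T-box factor of heart and lateral mesoderm, was at 408, 409 and 349 CPM in cardiac and 263, 206 and 518 CPM in hematopoietic libraries (adjusted p = 0.758). Gata4, a zinc-finger factor of heart and endoderm, was at 246, 300 and 258 against 95.6, 174 and 255 CPM (adjusted p = 0.316). Hand1, a factor of extraembryonic and lateral mesoderm, was at 356, 306 and 336 against 47.5, 81.4 and 417 CPM (adjusted p = 0.613). For Tbx20 and Hand1 hematopoietic replicate 3 was above every cardiac library while replicates 1 and 2 were below. Later cardiac factors, picked after their values were seen, were low. Mef2c was at 25.6, 27.3 and 17.1 CPM against 0, 0.866 and 0 CPM (adjusted p = 0.0884; 0.0346 without hematopoietic replicate 2), and Isl1 of the second heart field was at 19.6, 35.3 and 15.8 against 0, 0 and 4.20 CPM (adjusted p = 0.215; 0.0182 without hematopoietic replicate 3). Nkx2-5 was at 9.05, 0.560 and 1.01 against 49.4, 0 and 0.630 CPM (adjusted p = 0.617), its highest value being in hematopoietic replicate 1.

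Forkhead and lateral mesoderm regulators held 3 calls among 14 tested genes of 18 (Foxf1, Meis1 and Foxc1), all higher in cardiac mesoderm, at a median log2 fold change of 1.81. By unadjusted p 7 of the 14 were higher and none lower, and DESeq2 called 4 higher and none lower. In 8 of the 14 every cardiac library was above every hematopoietic library, against 11.8% of all tested genes. Without hematopoietic replicates 1, 2 and 3 the median was 2.88, 2.76 and 3.89, with 2, 4 and 4 calls. Foxf1 (chr8:121084386-121088144), a forkhead factor of lateral and splanchnic mesoderm, was at 174, 212 and 129 CPM against 0.964, 7.10 and 3.99 CPM. The gap was wide and the log2 fold change was 5.39 ± 0.87 (edgeR adjusted p = 0.0209; 0.0667 in the 6-library fit, 0.0199 in the fit of 9 mesoderm libraries, 0.0496 with the block, 0.0543 to 0.0801 without 1 cardiac library). Meis1, a homeodomain cofactor, was at 36.5, 39.0 and 37.4 CPM in cardiac libraries and had 1 count in all hematopoietic libraries, a ratio of 553 (99.0 to 21889 by counting error; adjusted p = 0.00422, 0.131 in the 6-library fit). Its 3 cardiac values lay within 3 CPM of each other. Foxc1, a forkhead factor of paraxial and cardiac mesoderm, was at 12.4, 14.4 and 20.3 CPM against 0 counts and at least 25.2-fold higher (adjusted p = 0.0357; 0.17 in the 6-library fit, 0.0715 with the block, 0.08 to 0.11 without 1 cardiac library and 0.0675 without hematopoietic replicate 1). Meis2, a relative of Meis1, was at 137, 216 and 203 against 1.69, 22.9 and 1.68 CPM (adjusted p = 0.0537; 0.00249 without hematopoietic replicate 2).

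Genes of the primitive streak and nascent mesoderm had a median log2 fold change of 2.31 over 15 tested genes of 18, and 1 was called. By unadjusted p 4 of the 15 were higher and 2 lower, and DESeq2 called 2 higher and none lower. In 7 of the 15 every cardiac library was above every hematopoietic library, against 11.8% of all tested genes. The reverse held in 1, against 6.87%. The median was 1.69 with genes at 0 in 1 type set to their bound. Without hematopoietic replicates 1, 2 and 3 it was 1.83, 1.73 and 3.28, with 0, 1 and 4 calls. The called gene, Lhx1, a LIM homeodomain factor of anterior mesendoderm, was at 238, 250 and 368 CPM in cardiac and 4.82, 53.0 and 3.78 CPM in hematopoietic libraries (3.77 ± 0.75, edgeR adjusted p = 0.0415; 0.171 in the 6-library fit, 0.0646 with the block). Leaving out the higher hematopoietic library, replicate 2, gave an adjusted p of 9.4e-06, leaving out hematopoietic replicate 1 gave 0.0756, and leaving out 1 cardiac library gave 0.0809 to 0.137. Lhx1os, the noncoding gene that starts next to Lhx1 on the other strand, was also called, at 18.6, 27.6 and 23.2 CPM against 1 count in all (edgeR adjusted p = 0.034; 0.0646 with the block, 0.08 to 0.107 without 1 cardiac library). Lhx1 was at 398 to 440 CPM in endoderm.

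Eomes and Mixl1, early factors of the streak, were at 383, 311 and 408 CPM and at 261, 227 and 328 CPM in cardiac libraries. In hematopoietic libraries Eomes was at 49.4, 28.2 and 264 CPM and Mixl1 at 50.8, 27.9 and 363 CPM. Replicate 3 thus held levels near the cardiac range for both while the other hematopoietic libraries were several-fold lower, and neither passed the test (adjusted p = 0.173 and 0.579). Without replicate 3 both were called (0.000116 and 0.00914). T, the brachyury factor of the streak, lay in the other direction, at 105, 121 and 124 against 261, 213 and 374 CPM (adjusted p = 0.208). Snai1, which drives the epithelial to mesenchymal transition, was at 47.9, 63.1 and 75.9 against 0, 0.173 and 46.8 CPM (adjusted p = 0.518; 0.00115 without replicate 3).

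Otx2 (chr14:48657677-48673819), a homeodomain factor of the anterior epiblast, endoderm and head mesoderm, was at 135, 84.1 and 123 CPM in cardiac and 2.65, 0.693 and 2.73 CPM in hematopoietic libraries. The hematopoietic libraries held under 3 CPM each, and the log2 fold change was 5.84 ± 0.58 (edgeR adjusted p = 0.000958; 0.0468 in the 6-library fit, 0.000449 with the block). Otx2 was at 184, 64.0 and 252 CPM in YFP+ cardiac mesoderm and 346 to 365 CPM in endoderm. It was the called member among 12 epiblast and neural plate markers. Pou5f1, a pluripotency factor of that list, was at 4.02, 4.90 and 10.3 against 0, 2.42 and 0.210 CPM, and Fgf5, an epiblast growth factor, at 17.4, 41.6 and 93.0 against 6.50, 1.04 and 56.1 CPM, neither of which passed the test. Fgf5 was called without hematopoietic replicate 3 (adjusted p = 0.0362).

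In the signalling lists edgeR called at most 2 genes each at the adjusted threshold, while more passed by unadjusted p or DESeq2. In the Notch pathway, which lets neighbouring cells choose different fates and is the subject of the study's title, 2 of 28 tested genes of 32 were called and the median log2 fold change was -0.06. The median turned to 0.02 and 0.59 without hematopoietic replicates 1 and 3. By unadjusted p 4 of the 28 were higher and 2 lower, and DESeq2 called 3 higher and 1 lower. Both genes called by edgeR were ligands. Dll1 (chr17:15367354-15376872), the main activating ligand of mesoderm, was at 78.3, 82.0 and 57.9 CPM in cardiac libraries and had 1 count in each hematopoietic library. Its ratio by counts was 355 (121 to 1725 by counting error), and the edgeR adjusted p was 0.0055, with 0.0258 in the 6-library fit and 0.0151 with the block. Dll3, a divergent ligand of presomitic mesoderm, was at 14.4, 13.0 and 32.0 CPM against 2 counts in all (ratio 147, 40.4 to 1216; adjusted p = 0.0283, 0.17 in the 6-library fit, 0.0646 with the block). Without 1 cardiac library the adjusted p of Dll3 was 0.0641 to 0.107, and without hematopoietic replicate 1 it was 0.0507.

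The Notch receptors did not pass the test. Notch1 was at 90.5, 152 and 131 CPM against 119, 67.5 and 206 CPM, with overlapping libraries (adjusted p = 0.966). Its hematopoietic values spanned the cardiac ones. Notch2 was at 326, 364 and 334 against 514, 524 and 698 CPM, with separate libraries (log2 fold change -0.76 ± 0.23, adjusted p = 0.138). Both receptors were thus abundant in both types. Hes1, a common target gene, was at 114, 68.9 and 78.8 against 55.4, 32.4 and 17.4 CPM (1.32 ± 0.46, adjusted p = 0.179). Numb, an inhibitor of the receptors, was at 75.4, 92.9 and 88.4 against 113, 37.9 and 215 CPM (adjusted p = 0.664).

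Among 32 tested BMP and Nodal genes of 35 listed, 1 was called and the median log2 fold change was 0.13. Without hematopoietic replicates 1, 2 and 3 it was 0.31, 0.00 and 0.34, with 1, 1 and 2 calls. By unadjusted p 4 of the 32 were higher and none lower, and DESeq2 called 3 higher and none lower. Lefty2 (chr1:180893108-180899103), a secreted Nodal antagonist, was at 55.8, 76.5 and 134 CPM in cardiac and 0.482, 0.693 and 0.210 CPM in hematopoietic libraries. The hematopoietic values stand for 7 counts in all, and the log2 fold change was 7.51 ± 0.78 (edgeR adjusted p = 0.000958; 0.0326 in the 6-library fit, 0.00556 with the block). The Nodal coreceptor Tdgf1 was at 270, 228 and 307 against 36.4, 46.2 and 239 CPM (adjusted p = 0.217), its high hematopoietic value being in replicate 3, without which it was called (0.000116). The BMP receptor Bmpr1a was at 494, 466 and 454 against 453, 323 and 378 CPM (adjusted p = 0.321).

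Wnt pathway genes had a median log2 fold change of 1.03 over 32 tested genes of 37. Of these 2 were called by edgeR, both higher in cardiac mesoderm (6, 2 and 4 without hematopoietic replicates 1, 2 and 3). By unadjusted p 13 of the 32 were higher and 4 lower, and DESeq2 called 8 higher and 2 lower. Fzd7, a Wnt receptor, was at 298, 357 and 361 against 89.1, 165 and 190 CPM (1.19 ± 0.23, edgeR adjusted p = 0.0405; 0.0646 with the block, 0.08 to 0.15 without 1 cardiac library). Frzb, a secreted Wnt antagonist, was at 72.1, 17.9 and 63.4 against 0.241, 1.73 and 0.420 CPM (5.91 ± 0.95, adjusted p = 0.0209; 0.0581 with the block). Both were at 0.17 in the 6-library fit. Frzb had an adjusted p of 0.0586 and 0.0596 without cardiac replicates 1 and 3. Frzb was near absent from hematopoietic libraries, while Fzd7 was expressed in both types. Lef1, a nuclear effector of Wnt signals, was at 476, 505 and 472 against 24.8, 41.4 and 204 CPM (adjusted p = 0.0884; 0.000443 without hematopoietic replicate 3), and Wnt5a, a noncanonical ligand, at 246, 264 and 247 against 1.93, 28.9 and 49.6 CPM (adjusted p = 0.09). Lgr5, a receptor for Wnt-enhancing R-spondins, had the opposite arrangement, at 51.3, 24.1 and 9.99 against 365, 510 and 242 CPM (adjusted p = 0.128). Dact1, a regulator that binds Dishevelled, was called from outside the list, at 113, 118 and 98.8 against 0.241, 1.56 and 0.630 CPM (6.98 ± 0.77, adjusted p = 0.00156; 0.0319 in the 6-library fit, 0.00556 with the block).

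The remaining signalling lists held 1 edgeR call each. The FGF pathway had a median log2 fold change of 1.12 over 22 tested genes of 24, or 0.70 in the 6-library fit, and without hematopoietic replicate 3 it held 3 calls. Its call was Fgfr1, the main FGF receptor of mesoderm, at 250, 269 and 251 against 125, 113 and 84.0 CPM (1.26 ± 0.24, edgeR adjusted p = 0.034; 0.159 in the 6-library fit, 0.0646 with the block, 0.0876 to 0.129 without 1 cardiac library). Fgf3, a ligand, was at 95.02, 116 and 121 against 405, 246 and 208 CPM (adjusted p = 0.158). By unadjusted p 7 of the 22 FGF genes were higher and 2 lower, and DESeq2 called 7 higher and 2 lower. Hedgehog and retinoic acid genes had a median of 0.90 over 20 tested of 24, or 1.32 and 1.75 without hematopoietic replicates 1 and 3 (1 and 2 calls). The called gene was Stra6, a retinol uptake receptor, at 4.52, 15.7 and 3.33 CPM against 2 counts in all (ratio 59.5, 16.2 to 495; adjusted p = 0.0252, 0.198 in the 6-library fit, 0.0508 with the block, 0.0801 without cardiac replicate 2). Stra6 was at 90.8 to 107 CPM in YFP+ cardiac mesoderm. Of the 20 tested Hedgehog and retinoic acid genes, 7 were higher and none lower by unadjusted p. DESeq2 called 4 of them higher and none lower. Among PDGF and VEGF ligands and receptors (15 tested of 16) the edgeR call was Flt1, described above. By unadjusted p 3 of the 15 were higher and 4 lower, and DESeq2 called 1 higher and 2 lower. Their median log2 fold change had no stable sign: it was 0.46 in the 12-library fit, -0.71 and -0.66 in the fits of 6 and 9 libraries and -0.06 without hematopoietic replicate 2.

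**Figure D5:**
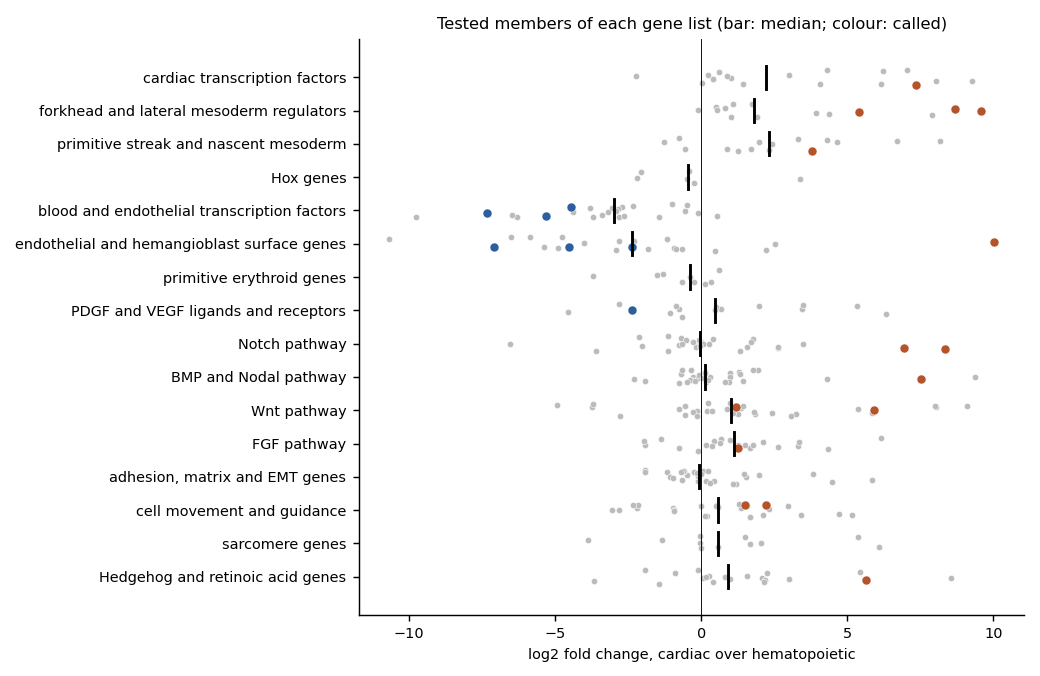
Log2 fold change of YFP-negative cardiac over hematopoietic mesoderm for each tested member of 16 gene lists, with called genes coloured (orange higher, blue lower in cardiac) and a bar at the median of each list. The 2 blood and endothelial lists have medians of -2.99 and -2.37, the cardiac, forkhead and streak lists 2.22, 1.81 and 2.31.

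Cell surface and guidance genes differed as well. Of 27 tested movement and guidance genes of 30, 2 were called by edgeR, at a median log2 fold change of 0.56. By unadjusted p 9 of the 27 were higher and 3 lower, and DESeq2 called 7 higher and 2 lower. The median was 1.14, 1.28 and 1.37 without hematopoietic replicates 1, 2 and 3 (4, 4 and 2 calls higher and 0, 1 and 1 lower) and 1.47 with the block. Robo1 (chr16:72308306-73046095), a receptor for Slit guidance proteins, was at 425, 471 and 530 CPM in cardiac and 164, 192 and 145 CPM in hematopoietic libraries. It was well expressed in both types and its replicates were close, and the log2 fold change was 1.51 ± 0.17 (edgeR adjusted p = 0.00167; 0.0393 in the 6-library fit, 0.00849 with the block). Plxna2, a plexin that receives semaphorin signals, was at 342, 412 and 391 against 26.7, 87.3 and 133 CPM (2.21 ± 0.41, adjusted p = 0.034; 0.17 in the 6-library fit, 0.0416 with the block, 0.08 to 0.112 without 1 cardiac library). Aplnr, the apelin receptor of migrating mesoderm, was at 259, 231 and 274 against 789, 563 and 156 CPM (adjusted p = 0.267; 0.0261 without hematopoietic replicate 3).

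Pcdh19 (chrX:133582860-133688987), a protocadherin of cell adhesion, had the smallest adjusted p of the comparison. It was at 146, 228 and 266 CPM in cardiac libraries and 0.964, 0.520 and 0.630 CPM in hematopoietic libraries, where 10 counts were found in all. The log2 fold change was 8.23 ± 0.55 (edgeR adjusted p = 1.9e-05; 0.00247 in the 6-library fit, 0.000384 with the block). Of the fits run, limma voom was the only one in which it missed the threshold (adjusted p = 0.0534). Pcdh8, a protocadherin of paraxial mesoderm, was at 11.4, 12.8 and 21.0 CPM against 0 counts and at least 24.1-fold higher (adjusted p = 0.034; 0.17 in the 6-library fit, 0.0766 with the block, 0.08 to 0.111 without 1 cardiac library and 0.0647 without hematopoietic replicate 1).

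The 28 tested genes of adhesion, matrix and the epithelial to mesenchymal transition held no edgeR call and a median log2 fold change of -0.07. By unadjusted p 5 were higher and 7 lower, and DESeq2 called 4 higher and 2 lower. Without hematopoietic replicate 3 edgeR called 3 higher and 1 lower and the median was 0.21. Fn1, the matrix protein fibronectin, was at 2032, 1855 and 1922 CPM in cardiac and 2474, 2119 and 2389 CPM in hematopoietic libraries (-0.27 ± 0.10, adjusted p = 0.189). Cdh2, the cadherin of mesenchyme and heart, was at 355, 405 and 407 against 119, 39.0 and 244 CPM (adjusted p = 0.122; 0.00806 without hematopoietic replicate 3). Vcan, a matrix proteoglycan, was at 803, 858 and 838 against 1375, 1577 and 1052 CPM (-0.68 ± 0.17, adjusted p = 0.0874; 0.0208 without hematopoietic replicate 3).

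Among differentiated muscle genes, 9 of the 22 listed were at or under the floor in all 6 libraries. Of 22 sarcomere genes 11 passed the filter, none was called by edgeR or DESeq2 (2 were higher by unadjusted p), and 5 had 0 counts in all 6 libraries, including the myosin gene Myh6. Tpm1, a tropomyosin also made outside muscle, was the member with the highest CPM, at 481, 357 and 385 CPM in cardiac and 381, 369 and 511 CPM in hematopoietic libraries (adjusted p = 0.968). Myl7, an atrial myosin light chain, was at 50.3, 47.4 and 43.6 against 25.5, 18.2 and 1.26 CPM (adjusted p = 0.329). Actc1, cardiac actin, was at 0, 1.12 and 8.26 CPM in cardiac and 0.241, 0 and 138 CPM in hematopoietic libraries, where the high value was that of replicate 3. Of 15 Hox genes found 6 passed the filter and none was called by edgeR, by DESeq2 or by unadjusted p. Hoxb1, the anterior Hox gene of early mesoderm, was at 74.1, 93.2 and 82.0 against 0.241, 23.6 and 0 CPM (adjusted p = 0.355).

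Other genes called on the cardiac side were in none of the lists. Srrm4, a splicing regulator best known from neurons, was at 56.8, 18.5 and 27.8 CPM against 0 counts and at least 55.1-fold higher (edgeR adjusted p = 0.0209; 0.159 in the 6-library fit, 0.0496 with the block). Srrm4 missed the threshold without cardiac replicates 1 and 3 (0.0529 and 0.0543). Trim62, a ubiquitin ligase, was at 8.71, 31.8 and 22.9 CPM against 0 counts and at least 33.9-fold higher (adjusted p = 0.0357). Slco5a1, an organic anion transporter family member, was at 35.2, 17.9 and 27.5 CPM against 1 count in all (ratio 388, 69.3 to 15337; adjusted p = 0.00162). Rbm24, an RNA-binding protein of cardiac splicing, was at 136, 118 and 122 against 2.65, 20.6 and 3.99 CPM (3.77 ± 0.69, adjusted p = 0.034). Trim62, Slco5a1 and Rbm24 had adjusted p-values of 0.17, 0.159 and 0.17 in the 6-library fit, and with single libraries left out in turn Trim62 and Rbm24 were called 2 of 6 times.

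Depth and gene overlap bear on these values. Of the 57 cardiac-higher genes 31 had 10 counts or fewer over the 3 hematopoietic libraries and 9 had 0. Of the 84 called genes 42 overlap an annotated gene on the opposite strand, among them Runx1, Cdh5, Egfl7, Myb, Foxf1, Otx2, Dll1, Dact1, Robo1 and Pcdh19, and the strand setting of the counting is not given in the sources used here, so their reads cannot be told apart from those of the neighbour.

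The same genes were read in the other cell types of the study. In 57 of the 57 cardiac-higher genes the lowest YFP+ cardiac library was above every hematopoietic library, and in 21 of the 27 hematopoietic-higher genes the highest YFP+ cardiac library was below every hematopoietic library. The hematopoietic libraries are shared by both comparisons, and the genes were chosen by their values in them. The choice favours such counts in advance, and the same shares over all tested genes are not given here. No likeness of the 2 cardiac types can be read from them. Of the 57, 42 had a mean of at least 10 CPM in endoderm and 21 a higher mean there than in YFP-negative cardiac mesoderm, while 23 of the 27 hematopoietic-higher genes also reached 10 CPM in endoderm. The shares of all tested genes that do so are not given here, so these counts are not a trait of the called genes. The summed level of 25 endoderm markers was 282 to 331 CPM in cardiac libraries and 123 to 310 CPM in hematopoietic libraries, against 3698 to 8156 CPM in endoderm. None was called by edgeR, while by unadjusted p 2 were higher and 5 lower and DESeq2 called 3 lower. The sum of 12 epiblast and neural plate markers was 485 to 758 CPM in cardiac and 383 to 604 CPM in hematopoietic libraries. Germ cell markers summed to 27.5 to 57.1 CPM in cardiac and 72.0 to 197 CPM in hematopoietic libraries, mainly through Kit, a receptor also of blood progenitors, at 13.9, 30.1 and 29.5 against 173, 117 and 71.6 CPM. Extraembryonic ectoderm markers summed to 12.9 to 29.0 CPM in cardiac libraries and to 164, 0.693 and 69.1 CPM in hematopoietic libraries, where single genes, Ascl2 in replicate 1 (118 CPM) and Esrrb in replicate 3 (67.8 CPM), carried much of the sum. Allantois and amnion markers summed to 893 to 1062 CPM in cardiac and 1168 to 1662 CPM in hematopoietic libraries. The part of these cells in the results above was not tested.

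More genes were detected in cardiac libraries. At least 1 count was found for 15675 ± 368 genes (SD, n = 3) in YFP-negative cardiac and 13217 ± 1108 genes in hematopoietic libraries, without overlap, and an exact two-sided permutation test gave p = 0.1, the smallest that 3 against 3 libraries allow. With every library thinned to 4472800 counts the numbers were 15244 ± 383 and 13065 ± 1012.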

How the data were processed

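The deposited files hold raw whole-number counts of reads per gene for 38924 Ensembl gene identifiers and 5 summary rows per library. Per the submitters' processing notes, the tools were STAR 2.5.0a, Picard, HTSeq 0.6.0 and DESeq2 with the mm10 build; settings, annotation release and strand are not given in the sources used here. Per the labels' protocols, RNA was isolated with a nanoprep kit and amplified with NuGEN low-input systems. The summary rows, 79.7% to 81.6% of tallied reads in the 6 libraries compared, were left out. They include reads that map to more than 1 place, so genes with near-identical copies are undercounted. Amplified reads carry no molecular identifiers, and intervals and floors cover counting error only. Symbols were found for 37607 genes. Gene coordinates are those of GENCODE M21 (GRCm38), and promoter sequences are RefSeq's (GRCm38.p6).

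Counts of all 12 libraries were fitted with edgeR 4.0.16 in R 4.3.3 (TMM scaling, default expression filter, 1 coefficient per cell type, 8 residual degrees of freedom, glmQLFit and glmQLFTest, two-sided, Benjamini-Hochberg over 14170 genes). Standard errors come from the log2 fold change and the F statistic. The procedure was tested on simulated data. Groups and replicate numbers come from the sample titles. Same-numbered libraries did not deviate together across genes (Pearson r of 0.0024 to 0.0148).

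The genes named are the first 14 per direction by fold change among called genes whose libraries do not overlap and whose higher type averages 10 CPM or more, with predicted genes passed over, then 4 sort markers, the called members of 22 gene lists (451 of 454 genes found) and up to 6 other members per list by level. Myo10, Tjp1, Mast4, Eml1, 1700006J14Rik, Dact1 and Rbm24, and the list members Sox18, Erg, Etv2, Mef2c, Isl1, Nkx2-5, Myh6 and the globins, were picked after their values were seen. The members and lists were chosen with earlier results of these data known. Alternatives were RLE scaling, no filter, a mean of 5 CPM, the replicate block, DESeq2 1.42.0, limma 3.58.1 voom, fits of 6 and 9 libraries, a minimum log2 change of 1, down-sampling and leaving out each library.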

Additional observations from a re-analysis of the deposited data

How the results depend on the processing

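The main count of 84 genes became 174 without an expression filter, 31 with the replicate number as a block, 1047 with DESeq2, 10 in the 6 compared libraries alone and 13 in the 9 mesoderm libraries. A block within the 6 libraries, added after seeing the data, called 2 genes. Leaving out 1 library at a time gave 16 to 247 genes. RLE scaling (86), a mean of at least 5 CPM (123), down-sampling (101) and a minimum log2 change of 1 (81) stayed within 1.5 times of 84. The total with limma voom (95) did so too, but its balance was reversed, at 19 higher and 76 lower. The 6-library fit without hematopoietic replicate 3, also added after seeing the data, called 85 genes, of which 27 were among the 84. Of the 84 genes, 84 were called with RLE scaling, 83 with down-sampling, 82 without a filter, 31 with the block and 31 with limma voom, and in each of these fits every shared call kept its direction. DESeq2 gave 1 of the 84, Pnma2, no adjusted p. The causes were not tested. The labels do not say that same-numbered libraries share embryos or litters. Their deviations were not correlated between the 2 types compared, and other pairs of types were not checked. The difference in detected genes kept its direction and its exact permutation p = 0.1 with thinning and with a minimum of 4 counts (13516 against 11213 genes). Where hematopoietic libraries held 10 counts or fewer, the size of a fold is poorly known, and differences in genes under 0.723 CPM were not detectable at this depth.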
